A study of Mus musculus with 10 samples.

Results

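The liver-secreted metabolic hormones examined here are 9 genes whose protein products the liver releases into blood, where they act on fat, muscle, brain or the liver itself. They are Fgf21, Gdf15, Inhbe, Angptl4, Ahsg, Fetub, Lect2, Igfbp2 and Enho. They were chosen by name from the non-control probes of the arrays, through the accession of each probe, and 9 of 9 were found on 10 probes, among 15089 genes tested in all. Each hormone had 1 probe except Enho, which had 2, and all 10 probes were well above background on all 10 arrays.

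The livers were those of C57BL/6J males, adult inbred mice that were 7 weeks old when bought. In the ethanol group a 60% high-fat diet was fed for 4 months, and ethanol was added to the drinking water over the last 3 of them, with a daily dose of 5 g per kg for 1 week that was then raised to 10 g per kg. The control group had the same high-fat diet over the same 4 months and received no ethanol, so both groups were diet-fed and no lean mouse was in the comparison. The experiment held 20 mice in 2 groups of 10, of which 5 per group were taken at random for 1-colour Agilent arrays, 1 mouse on each array.

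Hormones released by the liver carry news of its metabolic state to other organs. Fgf21 and Gdf15 are transcribed at low levels in unstressed hepatocytes and are induced by nutrient imbalance and by the integrated stress response, a pathway in which stress-sensing kinases slow translation and raise the transcription factor ATF4. Fetuins and Lect2 are made more steadily. These and the insulin-like growth factor binding protein gene Igfbp2 change with steatosis and insulin resistance. In this study the comparison asks whether ethanol altered these genes in livers already exposed to a fat-rich diet.

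None of the 9 hormone genes passed the threshold of an adjusted p under 0.05 in limma, a linear model fitted to all 15089 genes with Benjamini-Hochberg adjustment over all of them. Of all genes tested, 0.0199% passed. At an unadjusted p under 0.05 there was 1 hormone gene, Lect2, which was lower with ethanol, or 11.1% of the 9, against 13.3% of all genes in either direction and 5.3% lower. The 2 groups of mice overlapped for each of the 9 genes, whereas they did not overlap for 3.05% of all genes. With ethanol 6 of the 9 were higher and 3 lower, against 56.4% of all genes higher and 43.6% lower, and their median log2 fold change was 0.067, against 0.028 for all genes tested. The SD over the ethanol mice was more than 2.0 times that over the control mice for Fgf21, Gdf15, Igfbp2 and Enho, and for 18.0% of all genes. Without ethanol mouse 5 that held for Igfbp2 and Enho, and no longer for Fgf21 and Gdf15. The Igfbp2 ratio was 2.03 over all mice and 1.78 without ethanol mouse 3. The other Enho probe gave a ratio of 1.27.

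**Figure D1:**
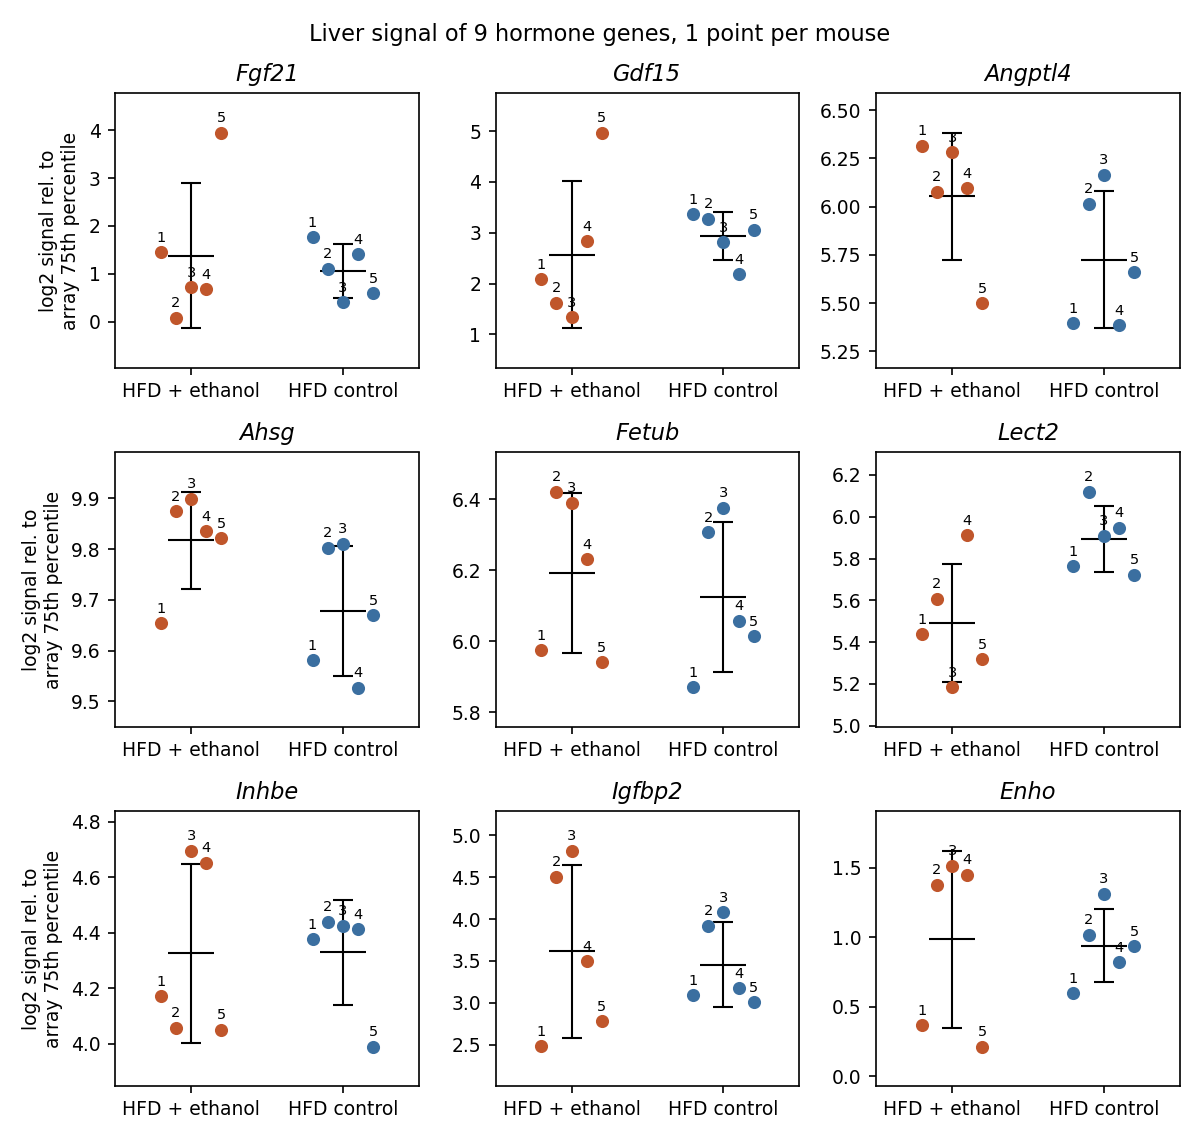
Log2 signal of each hormone gene relative to its array's 75th percentile (y axis, a separate scale in each panel) in 5 ethanol mice (left) and 5 control mice (right). Points are mice labelled with their replicate number, the horizontal bar is the group mean and the whiskers are 1 SD; the groups overlap in all 9 panels.

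All values below are log2 signals relative to the 75th percentile of the mouse's own array, so that 0 is the signal of that percentile and 1 unit is a doubling. Spots well above background made up 57.2% to 58.9% of the ethanol arrays and 55.5% to 59.1% of the control arrays, and 0 spots were saturated. The arrays lay on 3 slides. Slide 1 held 1 ethanol and 2 control arrays, slide 2 held 2 control arrays, and slide 3 held 4 ethanol and 1 control array, so slide and treatment partly went together. Albumin and the other hepatocyte markers were detected, 8 of 8, with a summed signal of 2105 to 2443 times the 75th percentile in ethanol livers and 2045 to 2700 times in control livers. The adipocyte markers Adipoq and Plin1 and 2 of 4 muscle markers were not well above background on any array. The adipocyte markers Lep, Cfd and Pparg and the muscle marker Tnnt3 were well above background on 5 of 5 arrays in each group. Cfd had log2 signals of 0.96 to 6.40 in ethanol mice and 3.58 to 5.24 in control mice. Precision is limited by having 5 arrays per group. The p-values of limma set the difference between groups against the spread within them, moderated over all genes. With 1 array per mouse, that spread mixes differences between mice, arrays and slides.

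Fgf21, a fasting- and stress-induced hormone that acts through fibroblast growth factor receptors and the co-receptor Klb, had log2 signals of 1.45, 0.08, 0.71, 0.67 and 3.95 in ethanol mice 1 to 5. In control mice 1 to 5 they were 1.76, 1.10, 0.41, 1.41 and 0.59. Ethanol mouse 5 stood above all other mice, ethanol mouse 2 below all of them, and the other 3 ethanol mice lay inside the control range. The lowest and the highest ethanol mouse differed 14.6-fold, and the lowest and the highest control mouse 2.55-fold. The group means were 1.37 ± 1.52 in ethanol and 1.05 ± 0.56 in control livers (SD, n = 5 each). The log2 fold change was 0.32 ± 0.64 (SE), a 1.25-fold difference with a 95% interval of 0.467 to 3.34, and limma's adjusted p was 0.847. Without ethanol mouse 5 the log2 fold change was -0.32, so the sign of the Fgf21 difference rested on that animal. Within slide 1 it was -0.33 and within slide 3, which held ethanol mouse 5, it was 0.45.

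Gdf15, a stress hormone of the TGF-beta superfamily that suppresses appetite through a brainstem receptor, had log2 signals of 2.09, 1.62, 1.34, 2.83 and 4.97 in ethanol mice 1 to 5. In control mice they were 3.36, 3.28, 2.81, 2.18 and 3.06. Here 3 of the 5 ethanol mice lay below every control mouse while ethanol mouse 5 lay above every control mouse. The spread was 12.4-fold among ethanol mice and 2.26-fold among control mice. The means were 2.57 ± 1.46 in ethanol and 2.94 ± 0.47 in control livers (SD, n = 5 each). The log2 fold change was -0.37 ± 0.61 (SE), with a limma adjusted p of 0.809, and the 95% interval of the fold ran from 0.305 to 1.97. Leaving out ethanol mouse 5 gave -0.97 with an adjusted p of 0.284 in limma, and leaving out ethanol mouse 3 gave -0.06.

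Inhbe encodes the beta E subunit of activin E, a hepatokine that restrains fat breakdown in adipose tissue. Its log2 signals were 4.17, 4.06, 4.70, 4.65 and 4.05 in ethanol mice and 4.38, 4.44, 4.43, 4.41 and 3.99 in control mice 1 to 5. Control mice 1 to 4 were nearly level, and the ethanol mice fell on both sides of them, 2 above and 3 below. The means were 4.33 ± 0.32 in ethanol and 4.33 ± 0.19 in control livers (SD, n = 5 each), the log2 fold change was -0.0034 ± 0.16 (SE) and limma's adjusted p was 0.994. The 95% interval of the fold was 0.784 to 1.27 in this model, which had no term for slide. Within slide 1 the log2 fold change was 0.45 and within slide 3 it was -0.20.

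The promoters of Fgf21 and Inhbe are shown because both carry the composite element that ATF4 binds with C/EBP partners, searched as TGATGNAA on both strands. The 250 bases before each start site are given 5′ to 3′ on the gene's strand, from RefSeq's GRCm38.p6 annotation, with the element in capitals. The Fgf21 window is chr7:45615491-45615740 (minus strand) and the Inhbe window is chr10:127351849-127352098 (minus strand).
Fgf21: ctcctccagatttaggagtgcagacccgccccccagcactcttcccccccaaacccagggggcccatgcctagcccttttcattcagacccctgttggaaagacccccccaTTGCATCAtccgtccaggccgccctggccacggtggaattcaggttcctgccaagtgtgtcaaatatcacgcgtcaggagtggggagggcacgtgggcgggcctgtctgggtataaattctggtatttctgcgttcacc
Inhbe: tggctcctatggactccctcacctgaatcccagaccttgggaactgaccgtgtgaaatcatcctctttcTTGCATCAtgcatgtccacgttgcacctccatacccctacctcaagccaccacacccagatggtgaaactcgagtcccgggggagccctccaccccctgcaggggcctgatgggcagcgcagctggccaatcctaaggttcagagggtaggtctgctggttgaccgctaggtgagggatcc

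The element begins 139 bases before the Fgf21 start and 181 bases before the Inhbe start, on the reverse strand in both. It occurs in 3.45% of the 32851 promoter windows of this length in the table and in 2 of the 10 windows that belong to the hormone genes, which cover 7 of the 9. Both windows of Gdf15 lack these letters. The E-box CACGTG, which occurs in 6.02% of all windows, stands 50 bases before the Fgf21 start, 83 bases before 1 of the 2 Gdf15 starts and 142 bases before 1 of the 2 Igfbp2 starts. The PPAR response element, a direct repeat searched by its exact consensus letters, was in none of the 10 windows and in 0.0335% of all windows. Letters that rare would be missing from 10 windows in nearly any case, so their absence says nothing about these genes. Angptl4 and Enho had no window to search. Fgf21 and Inhbe, which share the ATF4 element, had a Pearson r of -0.28 (permutation p = 0.471) over the 10 mice. Their Spearman rho was -0.115 (permutation p = 0.758). With each mouse left out in turn, r ran from -0.486 to 0.141. Whether the element goes with a shared pattern over mice was not tested.

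Angptl4, an inhibitor of lipoprotein lipase that is induced by fatty acids, had log2 signals of 6.32, 6.08, 6.28, 6.10 and 5.50 in ethanol mice and 5.40, 6.02, 6.16, 5.39 and 5.66 in control mice. Ethanol mice 1 to 4 sat in or above the upper part of the control range and 2 of them exceeded every control mouse, while ethanol mouse 5 sat in its lower part. The means were 6.05 ± 0.33 in ethanol and 5.72 ± 0.36 in control livers (SD, n = 5 each). The log2 fold change of 0.33 ± 0.20 (SE), or 1.26-fold, did not pass in limma (adjusted p = 0.472, 95% interval of the fold 0.927 to 1.70). Its direction was kept in all 26 alternatives run, but the size ran from 0.028 within slide 3 to 0.57 within slide 1.

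Ahsg encodes fetuin-A, an abundant plasma glycoprotein that binds the insulin receptor and calcium phosphate. Its log2 signals were 9.65, 9.87, 9.90, 9.84 and 9.82 in ethanol mice and 9.58, 9.80, 9.81, 9.53 and 9.67 in control mice. The 4 ethanol mice other than mouse 1 lay just above the highest control mouse. The difference was small, 9.82 ± 0.10 in ethanol and 9.68 ± 0.13 in control livers (SD, n = 5 each), and the log2 fold change, 0.14 ± 0.08 (SE), had a limma adjusted p of 0.469. It shrank to 0.0093 within slide 3 and to 0.0091 when the column position of each array was added to the model.

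Fetub, which encodes fetuin-B, a related protein that inhibits the protease ovastacin and is raised in fatty liver, had log2 signals of 5.97, 6.42, 6.39, 6.23 and 5.94 in ethanol mice and 5.87, 6.31, 6.38, 6.06 and 6.02 in control mice. Mice of both groups occupied the same range. The log2 fold change was 0.067 ± 0.13 (SE), with a limma adjusted p of 0.845, from means of 6.19 ± 0.23 in ethanol and 6.13 ± 0.21 in control livers (SD, n = 5 each).

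Lect2, a hepatocyte chemotactic factor that is raised in obesity and linked to muscle insulin resistance, had the smallest p of the 9. Its log2 signals were 5.44, 5.61, 5.18, 5.91 and 5.32 in ethanol mice and 5.76, 6.12, 5.91, 5.95 and 5.72 in control mice. Ethanol mice 1, 2, 3 and 5 lay below every control mouse, and ethanol mouse 4 lay among them. The means were 5.49 ± 0.28 in ethanol and 5.89 ± 0.16 in control livers (SD, n = 5 each), a log2 fold change of -0.40 ± 0.14 (SE) or 0.757-fold, with a 95% interval of 0.612 to 0.937 before any adjustment. The unadjusted p in limma was 0.0153, rank 761 among the genes tested, and the adjusted p was 0.302. Ethanol mouse 4 was the ethanol animal on slide 1, where the log2 fold change was 0.077, and the other 4 ethanol mice were on slide 3, where it was -0.73 against 1 control mouse. With slide as a fixed block it was -0.36, and limma's unadjusted p of 0.0919 no longer passed 0.05. The unadjusted p was also above 0.05 with column position in the model (0.0685) and without the 2 arrays of slide column 1 (0.0561). Other alternatives gave a smaller unadjusted p in limma. With quantile normalization the log2 fold change was -0.51 (unadjusted p = 0.0031, adjusted 0.202). With normexp background correction it was -0.43 (unadjusted p = 0.0073, adjusted 0.282).

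Igfbp2, an insulin-like growth factor binding protein that leptin raises in liver and that falls in steatosis, had log2 signals of 2.48, 4.51, 4.82, 3.50 and 2.78 in ethanol mice and 3.09, 3.92, 4.08, 3.17 and 3.01 in control mice. Ethanol mice 2 and 3 exceeded every control mouse and ethanol mice 1 and 5 fell below every control mouse. The ethanol mice spanned 5.06-fold and the control mice 2.11-fold. The means were 3.62 ± 1.03 in ethanol and 3.45 ± 0.51 in control livers (SD, n = 5 each), and the log2 fold change was 0.16 ± 0.46 (SE) with a limma adjusted p of 0.899. Ethanol mice 2 and 3 were also the 2 arrays in slide column 1, and without them the log2 fold change was -0.54.

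Enho encodes adropin, a small peptide that responds to dietary macronutrients and favours glucose over fat oxidation. Its main probe gave 0.37, 1.38, 1.51, 1.45 and 0.22 in ethanol mice and 0.60, 1.02, 1.31, 0.82 and 0.94 in control mice. Ethanol mice fell into 3 values above every control mouse and 2 below every control mouse, with none inside the control range. The means were 0.98 ± 0.64 in ethanol and 0.94 ± 0.26 in control livers (SD, n = 5 each), the log2 fold change was 0.047 ± 0.28 (SE) and the adjusted p in limma was 0.952. The other Enho probe gave 0.47, 1.30, 1.26, 1.21 and 0.46 in ethanol mice and 0.65, 1.35, 1.26, 0.61 and 0.88 in control mice, a log2 fold change of -0.011. On that probe ethanol mice 1 and 5 were again the lowest, but ethanol mice 2, 3 and 4 lay inside the control range. The largest difference between the probes in any mouse was 0.33.

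**Figure D2:**
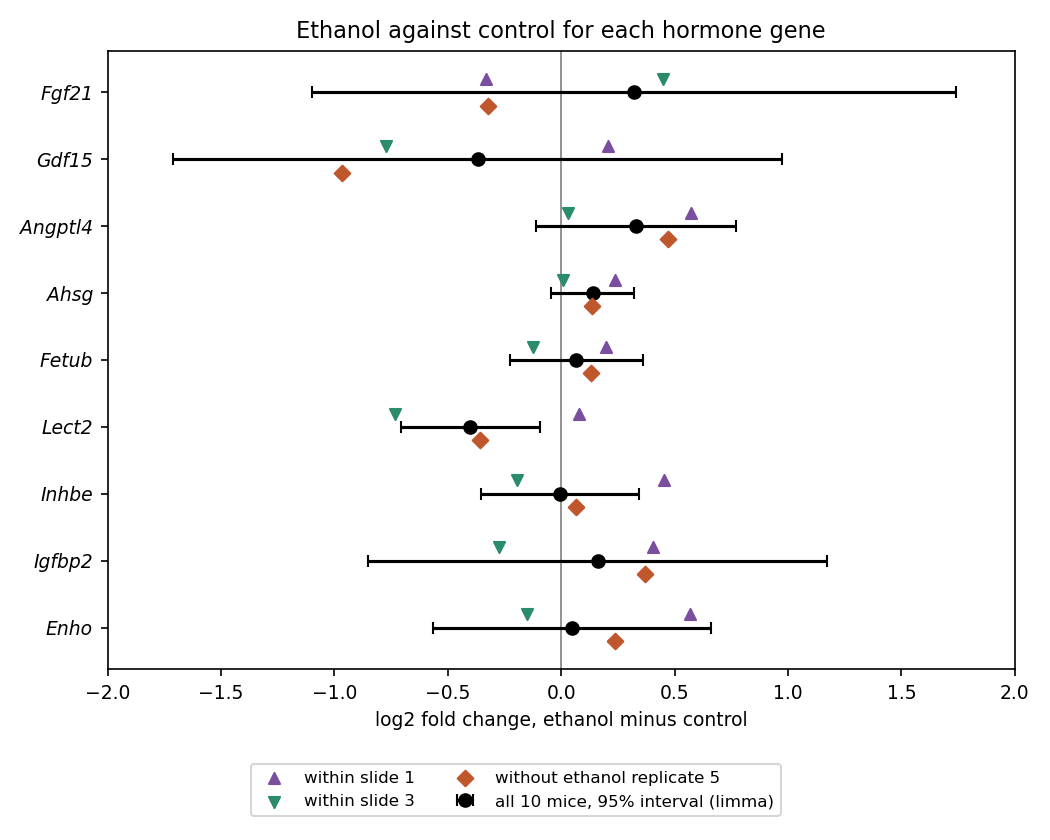
Log2 fold change, ethanol minus control, of each hormone gene (x axis) over all 10 mice with limma's 95% interval (black), and the values within slide 1, within slide 3 and without ethanol replicate 5. The interval crosses 0 for 8 of the 9 genes, and for Fgf21 the value without ethanol replicate 5 is -0.32.

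The SD was larger over ethanol mice than over control mice for 7 of the 9 hormone genes. The same held for 59.4% of the genes with a value on all arrays. The ratio of the SD over ethanol mice to that over control mice was 3.08 for Gdf15, 2.72 for Fgf21, 2.43 for Enho and 2.03 for Igfbp2. It was 1.78 for Lect2, 1.69 for Inhbe, 1.07 for Fetub, 0.924 for Angptl4 and 0.752 for Ahsg. A ratio over 2.0 was found for 4 of the 9 hormone genes and for 18.0% of the 15087 genes with a value on all arrays, whose median ratio was 1.16. Without ethanol mouse 5 the count was 2 of the 9, and 17.3% of all genes: the ratio was 1.00 for Fgf21 and 1.38 for Gdf15, against 2.09 for Igfbp2 and 2.07 for Enho. Without control mouse 4 the Gdf15 ratio was 5.91. The Igfbp2 ratio was under 2.0 without control mouse 1 (1.92), control mouse 4 (1.85), ethanol mouse 1 (1.85) or ethanol mouse 3 (1.78). On the other Enho probe the SD was 0.43 over ethanol mice and 0.34 over control mice, a ratio of 1.27. These SDs were not tested against each other.

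**Figure D3:**
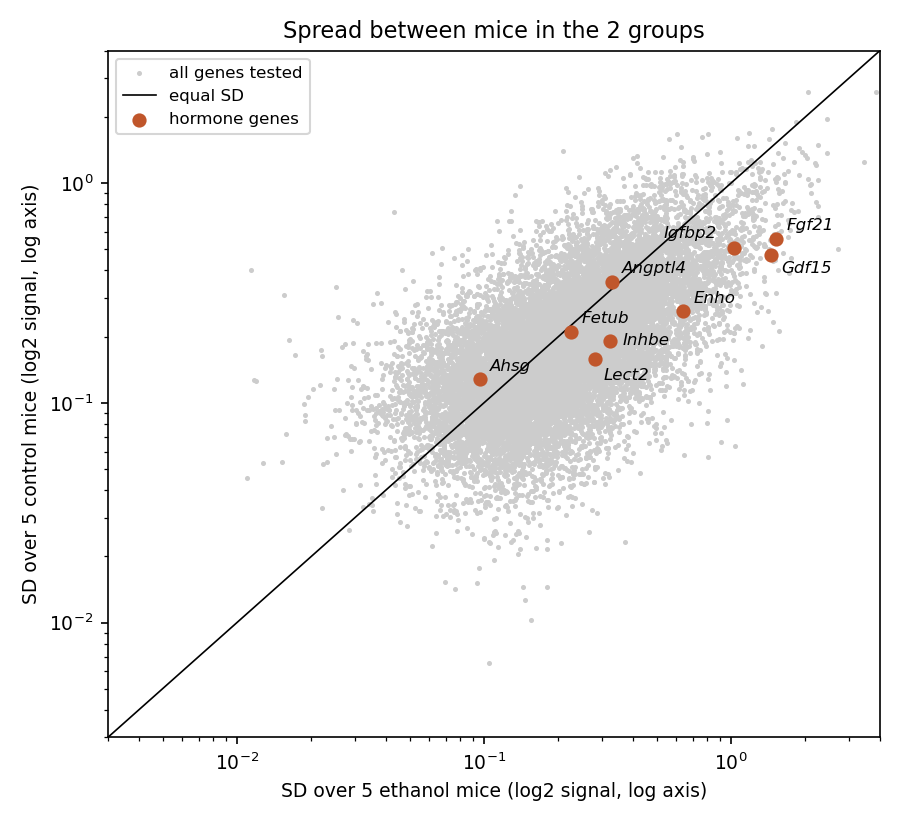
SD of the log2 signal over 5 ethanol mice (x axis) and over 5 control mice (y axis), both on log axes, for all genes tested (grey) and the 9 hormone genes (coloured), with the line of equal SD. Gdf15 (1.46 and 0.47), Fgf21 (1.52 and 0.56), Enho (0.64 and 0.26) and Igfbp2 (1.03 and 0.51) lie well below the line, where the ethanol SD is larger.

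A few pairs of hormones varied together over the 10 mice, and correlations as strong were common among all genes, as given below. Of 36 pairs, 4 were correlated at an adjusted p under 0.05 (permutation of 100000 draws, two-sided, adjusted over the 36 pairs), 3 of them positive and 1 negative. Fetub and Igfbp2 had an r of 0.916 (permutation p = 0.00028, adjusted 0.00972) and a Spearman rho of 0.903 (permutation p = 0.00087). Fetub and Enho had an r of 0.869 (permutation p = 0.0021, adjusted 0.0187) and a rho of 0.855 (permutation p = 0.0027). Igfbp2 and Enho had an r of 0.855 (permutation p = 0.0021, adjusted 0.0187) and a rho of 0.879 (permutation p = 0.0015). Ethanol mice 2 and 3 were among the 3 highest mice for each of these genes, and ethanol mice 1 and 5 and control mouse 1 were among the 4 lowest.

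Fgf21 ran against Enho, with an r of -0.816 (permutation p = 0.00054, adjusted 0.00972) and a rho of -0.758 (permutation p = 0.0156, adjusted 0.112). Ethanol mice 5 and 1 and control mouse 1 were high in Fgf21 and low in Enho. Without the 2 mice farthest from the median of the first gene the 4 correlations were 0.944, 0.868, 0.806 and -0.762 in the order given. The same 4 pairs had adjusted p-values of 0.0139 to 0.0177 by permutation after each group was centred on its own mean. With group and slide both removed their r was 0.92, 0.957, 0.965 and -0.829. Slide column was not removed. Ethanol mice 2 and 3 were the 2 arrays in slide column 1, and the part of column in these correlations was not tested. No slide held 6 mice, so no correlation within a slide is given. With the other Enho probe the r was 0.917 with Fetub, 0.869 with Igfbp2 and -0.727 with Fgf21. Such correlations were common in these livers: an absolute r of at least 0.816 was reached by 2.09% of all gene pairs, and with 8.11% of genes for Fetub, 6.87% for Enho, 6.56% for Igfbp2 and 2.14% for Fgf21. Leaving out ethanol mouse 3 left 2 called pairs, Fetub with Igfbp2 and Fgf21 with Enho, and leaving out ethanol mouse 1 gave 11. Leaving out ethanol mouse 5, the mouse highest in Fgf21, left Fgf21 with Enho uncalled. With each mouse left out in turn, however, the r of that pair stayed between -0.879 and -0.793. Without ethanol mouse 5, Ahsg with Fetub was called (r = 0.890, exact permutation, adjusted p = 0.0433).

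Fgf21 and Gdf15, both known targets of the integrated stress response, had an r of 0.761 (permutation p = 0.0200, adjusted 0.103) and a rho of 0.491 (permutation p = 0.156) over the 10 mice. Without ethanol mouse 5 alone r was 0.323, and without the 2 mice farthest from the median of Fgf21, ethanol mouse 5 and control mouse 1, it was 0.095, so the relation rested on these mice.

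**Figure D4:**
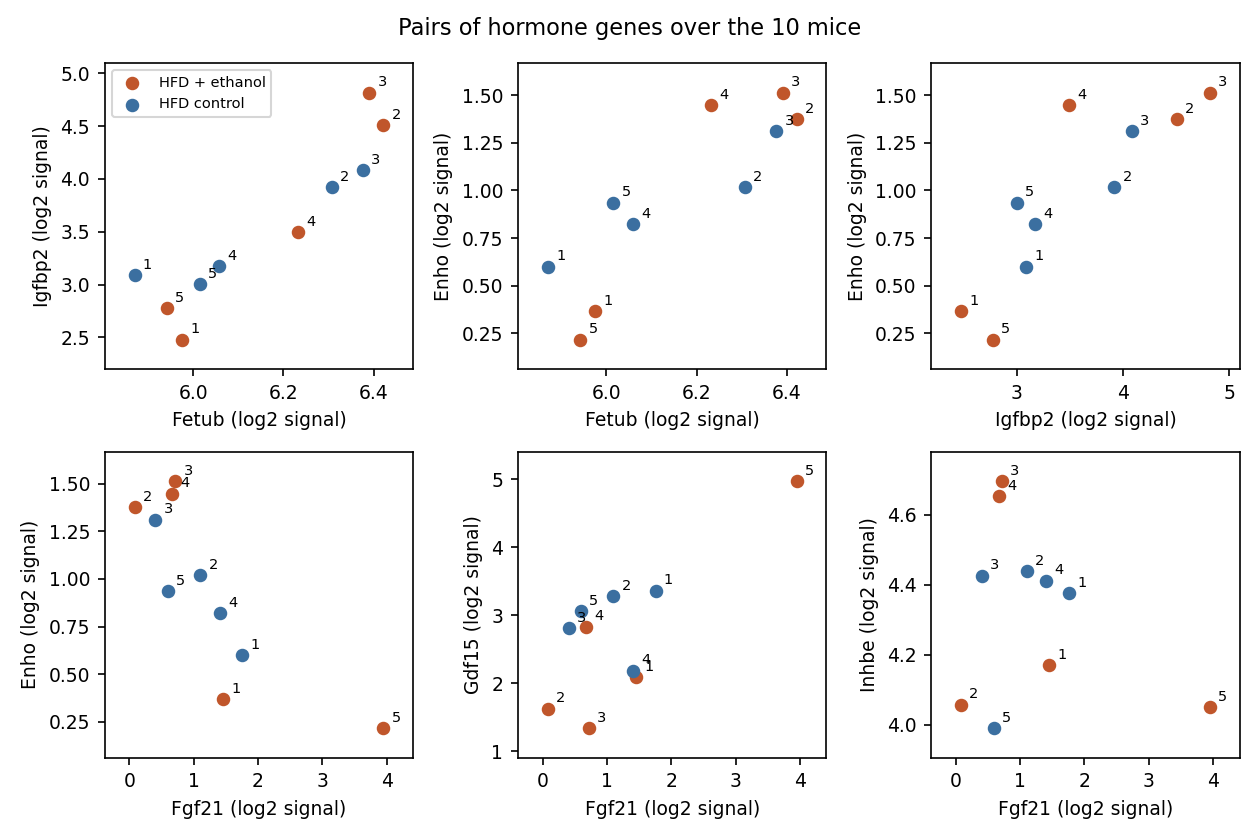
Log2 signals of 6 pairs of hormone genes, 1 point per mouse labelled with its replicate number, ethanol mice and control mice in separate colours. Fetub, Igfbp2 and Enho rise together in both groups, Fgf21 falls as Enho rises (r of -0.816), and for Fgf21 and Gdf15 ethanol mouse 5 lies apart (r of 0.761 over all mice and 0.323 without it).

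**Figure D5:**
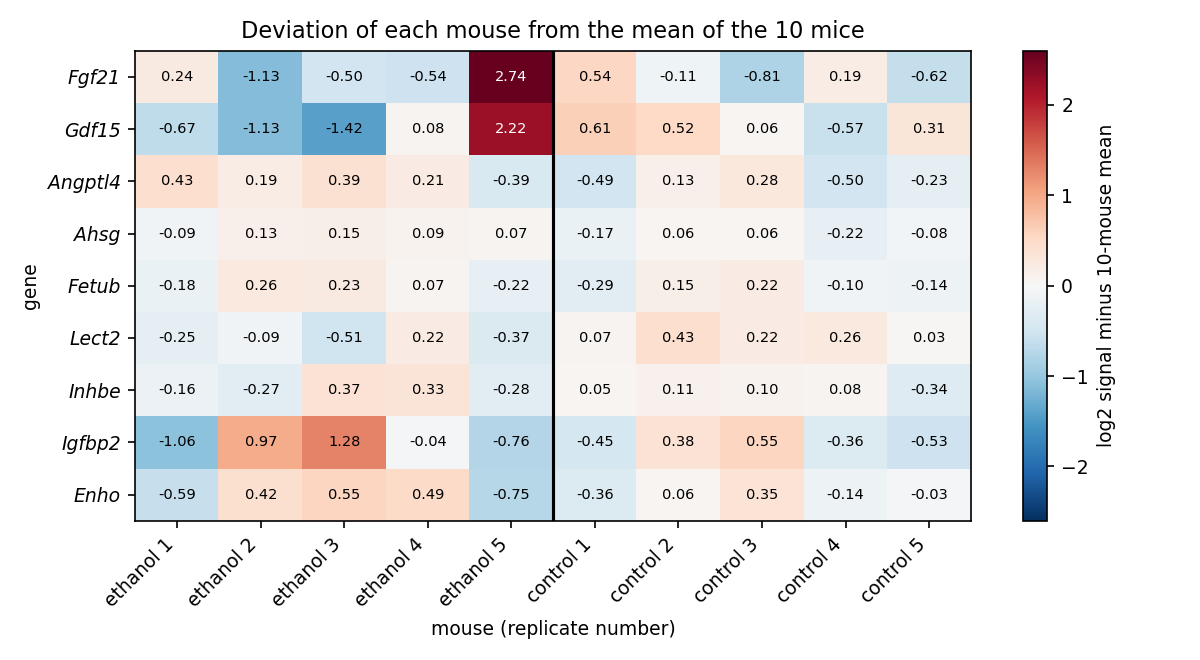
Log2 signal of each hormone gene (rows) in each mouse (columns, ethanol mice left of control mice) minus that gene's mean over the 10 mice, with the value printed in each cell and shown by colour. Ethanol mouse 5 is high in Fgf21 and Gdf15, and ethanol mice 2 and 3 are high in Igfbp2.

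The genes most like each hormone over the 10 mice, by Pearson r as a description, came from all genes tested. For Fgf21 they were Tent5a (0.954), Zbed3 (0.937) and Cxadr (0.931), and for Gdf15 Prkab2 (0.923), Jun (0.909) and Iffo2 (0.902). For Angptl4 they were Sox13 (0.957), Zbtb7c (0.932) and Zfp574 (0.922), and for Ahsg 1700020N15Rik (0.929), Lemd2 (0.926) and Fbxo39 (0.923). For Fetub they were Il1rap (0.968), St6galnac6 (0.966) and Sult2a8 (0.953), and for Igfbp2 Tango6 (0.990), Trafd1 (0.956) and Gpld1 (0.954). For Enho they included Hamp (0.974) and Baat (0.974), and they were for Lect2 Efcab14 (0.950), Adora1 (0.932) and 4430402I18Rik (0.931), and for Inhbe Zfp952 (0.951), Zfp933 (0.891) and Pwwp2a (0.884). None of the genes named here passed the threshold in the comparison of ethanol and control.

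The regulators of the hormones and targets of the stress pathway were 17 genes, all tested, of which 0 passed in limma and 1, or 5.88%, had an unadjusted p under 0.05. With ethanol 11 were higher and 6 lower, with a median log2 fold change of 0.05. Mlxipl, which encodes the carbohydrate-sensing factor ChREBP, had the smallest p, and its log2 fold change, 0.44 ± 0.15 (SE), had a limma adjusted p of 0.309. It was followed by Trib3, a target of ATF4 (0.50 ± 0.23, SE, adjusted p = 0.379), and the asparagine synthetase gene Asns (1.25 ± 0.59, SE, adjusted p = 0.383). Atf4 itself had log2 signals of 5.39, 5.30, 5.39, 5.52 and 6.01 in ethanol mice and 5.32, 5.24, 5.09, 5.49 and 5.10 in control mice, a log2 fold change of 0.27 ± 0.14 (SE) with an adjusted p of 0.42. Ethanol mouse 5, the animal high in Fgf21 and Gdf15, also had the highest signal of the 10 mice for Atf4, for Atf3 at 0.75, for Ddit3 at -0.19 and for Trib3 at 3.64. Atf3 otherwise ran from -2.58 to -1.27 in ethanol mice and from -2.02 to -0.78 in control mice. Eif2ak3 at 0.80 and Ppard at -0.22 were also highest in ethanol mouse 5, and the other genes of the list were not. Chac1, another target, was not highest there (1.57 in ethanol mouse 5, 1.78 in ethanol mouse 2 and 1.79 in control mouse 4). Neither was Asns (-0.11 in ethanol mouse 5, against 0.40 in ethanol mouse 3). Atf5 was at 8.04 in ethanol mouse 5 and 8.23 in ethanol mouse 3, and Xbp1 at 5.41 and 6.12. The share of all genes that were highest in ethanol mouse 5 is not given. Ppara, the fasting-activated receptor that drives Fgf21, had a log2 fold change of -0.085 ± 0.12 (SE).

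Receptors and partners of the hormones were 18 genes, of which 13 were tested and 0 passed, with 0 at an unadjusted p under 0.05 in limma. Of the 13, 6 were higher and 7 lower with ethanol. Gfral, Ret, Fap, Acvr1b and Acvr1c did not pass the filter on dim probes. Tie1, a receptor of LECT2, had a log2 fold change of -0.34 ± 0.16 (SE, adjusted p = 0.386), Klb, the FGF21 co-receptor, 0.20 ± 0.14 (SE, adjusted p = 0.514), and Lpl, the lipase that ANGPTL4 inhibits, -0.46 ± 0.33 (SE, adjusted p = 0.535). In the ANGPTL and lipase system 7 of 10 genes were tested, 6 were higher, 1 was lower and 0 passed, with 0 at an unadjusted p under 0.05 in limma. Angptl6 had 0.12 ± 0.07 (SE, adjusted p = 0.481). Angptl8, an insulin-induced member of the same family, had signals of 3.03, 4.09, 5.25, 4.36 and 6.51 in ethanol mice and 3.53, 4.28, 4.43, 3.43 and 3.65 in control mice, and its 0.78 ± 0.55 (SE) did not pass (adjusted p = 0.527). Ethanol mouse 5 was again the highest animal and ethanol mouse 1 the lowest.

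In the insulin-like growth factor binding family, relatives of Igfbp2, 8 of 9 genes were tested and 0 passed in limma, with 2 at an unadjusted p under 0.05, both lower, or 25.0% of the 8, against 13.3% of all genes in either direction and 5.3% lower. Igfbp7 had 4.92, 4.82, 4.86, 4.87 and 4.90 in ethanol mice and 5.52, 5.18, 5.06, 5.53 and 5.77 in control mice. The ethanol mice lay close together below every control mouse, and the log2 fold change was -0.54 ± 0.13 (SE, adjusted p = 0.183). Igfbp3, which carries most circulating IGF1 and is made mainly by non-parenchymal liver cells, had 2.51, 2.10, 2.02, 2.66 and 2.51 in ethanol mice and 2.82, 2.92, 2.72, 2.85 and 3.03 in control mice. Its groups did not overlap either, and the log2 fold change was -0.51 ± 0.13 (SE, adjusted p = 0.205). Igfbp4 came next by p, with 0.13 ± 0.15 (SE, adjusted p = 0.717). Of 8 stellate cell markers, 7 had a lower mean with ethanol, 0 passed the threshold and 5 had an unadjusted p under 0.05 in limma, all 5 lower, against 5.3% of all genes. Their summed signal, most of it from Dcn (mean log2 signal 5.78 in ethanol and 6.15 in control livers), was 50.2 to 72.8 times the 75th percentile in ethanol livers and 70.1 to 91.8 times in control livers. Their part in the Igfbp7 and Igfbp3 values was not tested. In bulk liver, fewer cells of a type and less RNA per cell cannot be told apart.

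Among 18 other hepatokine genes, all tested, 14 were higher and 4 lower with ethanol, 0 passed in limma and 2 had an unadjusted p under 0.05, or 11.1% against 13.3% of all genes. Smoc1, a glucose-responsive hepatokine, ran from 2.90 to 3.12 in ethanol mice and from 2.42 to 2.72 in control mice. Every ethanol mouse exceeded every control mouse, by a log2 fold change of 0.45 ± 0.09 (SE), and limma's adjusted p was 0.159. Gdf2, which encodes BMP9, had -0.20 ± 0.08 (SE, adjusted p = 0.321), and Rarres2, the gene of chemerin, -0.17 ± 0.10 (SE, adjusted p = 0.457). In the activin and inhibin system of Inhbe, 8 of 11 genes were tested, 3 were higher, 5 lower and 0 passed, with 0 at an unadjusted p under 0.05 in limma. Inhba had 0.53 ± 0.35 (SE, adjusted p = 0.502), Inhbc, the liver-made neighbour of Inhbe, 0.26 ± 0.18 (SE, adjusted p = 0.514), and Inhbb -0.19 ± 0.17 (SE, adjusted p = 0.623).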

How the data were processed

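Per the file headers, the authors read 1-colour arrays of an mm9 design with Feature Extraction 10.7.3.1 (Agilent), whose values are linear spot intensities, background-subtracted and spatially detrended. Flags for control, saturated, outlier and well-above-background spots come from the same deposited tables and are coded as other values. The authors also deposited log2 values, with the making of that table not given in the sources used here; differences between arrays in it matched those of the scaled scanner values (r of 1 over 27812 bright probes), and its column medians ran from -0.12 to 0.08. What each probe was centred on stays unknown and cancels between groups.

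Control and outlier spots were left out. Processed intensity was scaled to each array's 75th percentile (298.0 to 347.6 on ethanol arrays, 279.9 to 387.4 on control arrays), floored at 4 signal units, put on a log2 scale and averaged over spots of a probe. Probes well above background on at least 4 of 5 arrays of a group were kept (31110 of 56605). A gene symbol was found for 32994 probes through accessions in RefSeq's GRCm38.p6 table, and the brightest kept probe stood for a gene. The 2-group model was fitted in limma 3.58.1 (R 4.3.3), whose moderated SE is given, and was tested on simulated data. The hormones, the lists and the naming rule (hormones always, and members of related lists past the threshold or the 3 with the smallest p) were chosen with earlier results of these data known. Direct partners were also named, as were regulators and stress targets described for ethanol mouse 5, these after their values were seen. Alternatives changed the scaling, the background correction, the floor, the filter, the probe rule or the variance model, added slide, slide column or replicate number, or left out 1 array. Normexp used median spot signals. The likeness list of Enho is not reported here in full.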

Additional observations from a re-analysis of the deposited data

Results flagged for a closer look

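Inhbe in control mouse 5, at 3.99 on the log2 scale, lay far below the other 4 control mice: its gap to the nearest of them was 0.861 of the group's whole range, above the limit of 0.71 for 5 samples. It was 1 of 18 groups examined, and chance marks about 1 group in 20.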

How the results depend on the processing

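None of the 9 hormone genes passed the threshold in any alternative run, and Angptl4 and Ahsg kept their direction in all of them. The log2 fold changes that changed sign were as follows, and the cause was not tested. With quantile normalization Fetub was at -0.039. With slide as a fixed block Inhbe was at 0.098, and as a random block Enho was at -0.0042. Within slide 1 Fgf21 was at -0.33, Gdf15 at 0.21, Lect2 at 0.077 and Inhbe at 0.45. Within slide 3 Fetub was at -0.12, Igfbp2 at -0.27 and Enho at -0.15. With column position in the model Fetub was at -0.17, Igfbp2 at -0.79 and Enho at -0.27. Without the 2 arrays of slide column 1, an alternative chosen after seeing the data like the floor of 1 and the other Enho probe, Gdf15 was at 0.36, Fetub at -0.076, Igfbp2 at -0.54 and Enho at -0.26. The other Enho probe gave -0.011. With each array left out in turn Fgf21 ran from -0.32 to 0.64, Inhbe from -0.096 to 0.065, Igfbp2 from -0.14 to 0.45 and Enho from -0.086 to 0.24. The number of genes past the threshold, 3 in limma over all 10 arrays, was 7 with normexp and with a trended robust variance, 5 with a floor of 16, 12 with slide as a random block, and 0 to 7 with each array left out. The random block used a within-slide correlation of -0.128, so arrays on the same slide were modelled as less alike than arrays on different slides. The number of genes past the threshold was also counted in other alternatives. It was 0 with no filter, with a fixed slide block, in slide 1 alone, in slide 3 alone and with column position in the model, where 2404, 806, 2094, 676 and 866 genes had an unadjusted p under 0.05 in limma. With the replicate number as a block it was 0, with 2443 at an unadjusted p under 0.05. Deviations of same-numbered mice correlated at 0.324, 0.148, 0.311, 0.0643 and -0.11, and 3 of 10 arrays correlated best with their own number, so the numbers were not taken as pairs, although the block lowered the SE of Igfbp2 to 0.21, against 0.46 without it. The number of correlated hormone pairs ran from 2 to 11 with each array left out.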
